A study of Homo sapiens with 18 samples.

Results

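Matrix metalloproteinases and their tissue inhibitors were followed through an RNA sequencing study of MDA-MB-231, a human cell line long used as a model of breast cancer that lacks hormone receptors. The 10 genes were chosen by name: the metalloproteinases MMP1, MMP2, MMP3, MMP9, MMP13, MMP14 and MMP24, and the inhibitors TIMP1, TIMP2 and TIMP3. The choice was made with earlier results of these data known. All 10 were found by Ensembl identifier among the 62830 rows of the gene table. Each of 6 groups had 3 libraries, and all 18 libraries carried the same batch label. The groups were TRIM27 knockout (KO) and wild-type (WT) cells treated with olaparib, an inhibitor of the DNA repair enzyme PARP1 and its relatives, at 2 µM for 24 h, KO and WT cells transfected for 48 h with an siRNA against PARP1 (siPARP1, labelled 100 pM), and KO and WT cells with no treatment. TRIM27 encodes a tripartite motif protein that acts as a ubiquitin ligase. The labels do not say how the knockout was made or whether the cells are 1 clone. The protocols mention vehicle and non-targeting siRNA controls, but none of the 18 libraries carries such a label, so untreated cells of the same genotype served as the control of both treatments. The effect of transfection itself therefore cannot be told apart from that of siPARP1.

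Matrix metalloproteinases are zinc-dependent enzymes that cut collagens and other proteins outside the cell, and TIMPs block them by sitting in the active site. MMP1 and MMP13 are collagenases, MMP3 is the stromelysin, which also activates other proenzymes, and MMP2 and MMP9 are gelatinases, which cut denatured collagen and the type IV collagen of basement membranes. MMP14 and MMP24 are membrane-type enzymes held at the cell surface. MMP14 activates the proenzyme of MMP2 with the help of TIMP2, while TIMP3 binds to the matrix and also inhibits ADAM17, the protease that sheds TNF.

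The 7 enzymes share the site that holds the catalytic zinc. It is shown because all 7 carry it, and because it shows how far the transcripts differ even there. The lines give the 33 bases of the reading frame, 5′ to 3′, from the GENCODE 29 transcripts, with the codons of the 3 zinc-binding histidines and of the catalytic glutamate in capitals.
MMP1: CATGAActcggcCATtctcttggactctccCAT
MMP13: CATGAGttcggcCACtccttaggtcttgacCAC
MMP3: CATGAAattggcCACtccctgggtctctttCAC
MMP2: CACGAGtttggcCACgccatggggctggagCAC
MMP9: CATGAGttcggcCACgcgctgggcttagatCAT
MMP14: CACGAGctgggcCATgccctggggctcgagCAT
MMP24: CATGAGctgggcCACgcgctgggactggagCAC
Over the 21 pairs of enzymes, between 18 and 27 of these 33 bases were identical. No stretch of 50 bases was shared between members. MMP24 shared 18.7% of its distinct 50-base stretches with other genes (MMP24OS and AL121753.2, both overlapping it on the other strand), MMP9 shared 11.1% with the antisense gene SLC12A5-AS1, and TIMP2 shared 8.28% with AC022966.1 and CEP295NL. The other 7 shared 2.92% or less, among them MMP3 with its relative MMP10. No source states whether the authors' counting used the strand, so reads of such overlapping genes cannot be told apart.

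Values are FPKM, a measure scaled by transcript length and library size, which allows levels of different genes to be set side by side. Summed FPKM ran from 812699 to 910313 per library, the relative depth of the libraries from 0.749 to 1.237 times that of WT library 1, and the absolute depth is unknown. TRIM27 averaged 0.623 ± 0.066 FPKM in KO cells and 1.45 ± 0.243 FPKM in WT cells (SD, n = 3 each; limma adjusted p = 0.000538), so its RNA was lower but still present. PARP1 averaged 9.25 FPKM in KO and 10.7 FPKM in WT cells under siPARP1, against 55.2 FPKM in untreated KO and 56.2 FPKM in untreated WT cells. Under olaparib PARP1 was lower as well, at 40.1 FPKM in KO and 38.8 FPKM in WT cells (limma adjusted p = 7.99e-05 and 2.15e-05). TRIM27 was higher under siPARP1 than without treatment, at 0.990 FPKM in KO and 1.945 FPKM in WT cells (limma adjusted p = 0.0182 and 0.0333). In WT cells the TRIM27 libraries overlapped. The mesenchymal marker VIM averaged 1609 to 2599 FPKM in the 6 groups, while the epithelial genes CDH1 and EPCAM were at most 0.310 FPKM in any library. The epithelial keratins KRT18 and KRT8 were high, with group means of 497.8 to 1229 and 292.7 to 1287 FPKM. Both were lowest in KO cells under siPARP1, and their part in the results below was not tested. CD44 and AXL averaged 196.0 to 362.9 and 70.8 to 138.4 FPKM. Of 5 leukocyte markers, 0 or 1 reached 1 FPKM in a group and their sum was at most 1.08 FPKM. The sum of 4 endothelial markers was at most 0.0338 FPKM. Of 7 fibroblast markers, 2 to 4 reached 1 FPKM in a group, and their sum was 7.13 to 17.8 FPKM over the libraries, mostly from COL1A1 and COL3A1, while DCN and COL1A2 were at most 0.0834 FPKM. LUM averaged 0.0066 FPKM in KO and 1.00 FPKM in WT cells without treatment. The part of these genes in the results below was not tested. The labels call the cells epithelial, and of 6 luminal markers only GATA3 and ERBB3 reached 1 FPKM. The sum of these 6 was 47.2 to 51.9 FPKM in KO and 25.2 to 27.5 FPKM in WT libraries without treatment, and its part in the results below was not tested.

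The 10 genes spanned a wide range of levels. TIMP1 was the most abundant in every group, with group means between 125.4 and 186.4 FPKM. TIMP2, MMP14 and, in WT cells, TIMP3 followed. MMP24 and MMP2 lay lower, and MMP1, MMP9 and MMP3 stayed at or near 0 except in WT cells under siPARP1. MMP13 was listed at 0 in all 18 libraries. Testing used log2(FPKM + 1) of the 15764 genes that reached 1 FPKM in 3 or more libraries, and 7 members passed that filter. MMP1 passed only through the 3 libraries of WT cells under siPARP1. MMP3, MMP9 and MMP13 did not pass, and MMP3 and MMP9 were read from the same model without the filter, over 41488 genes.

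**Figure D1:**
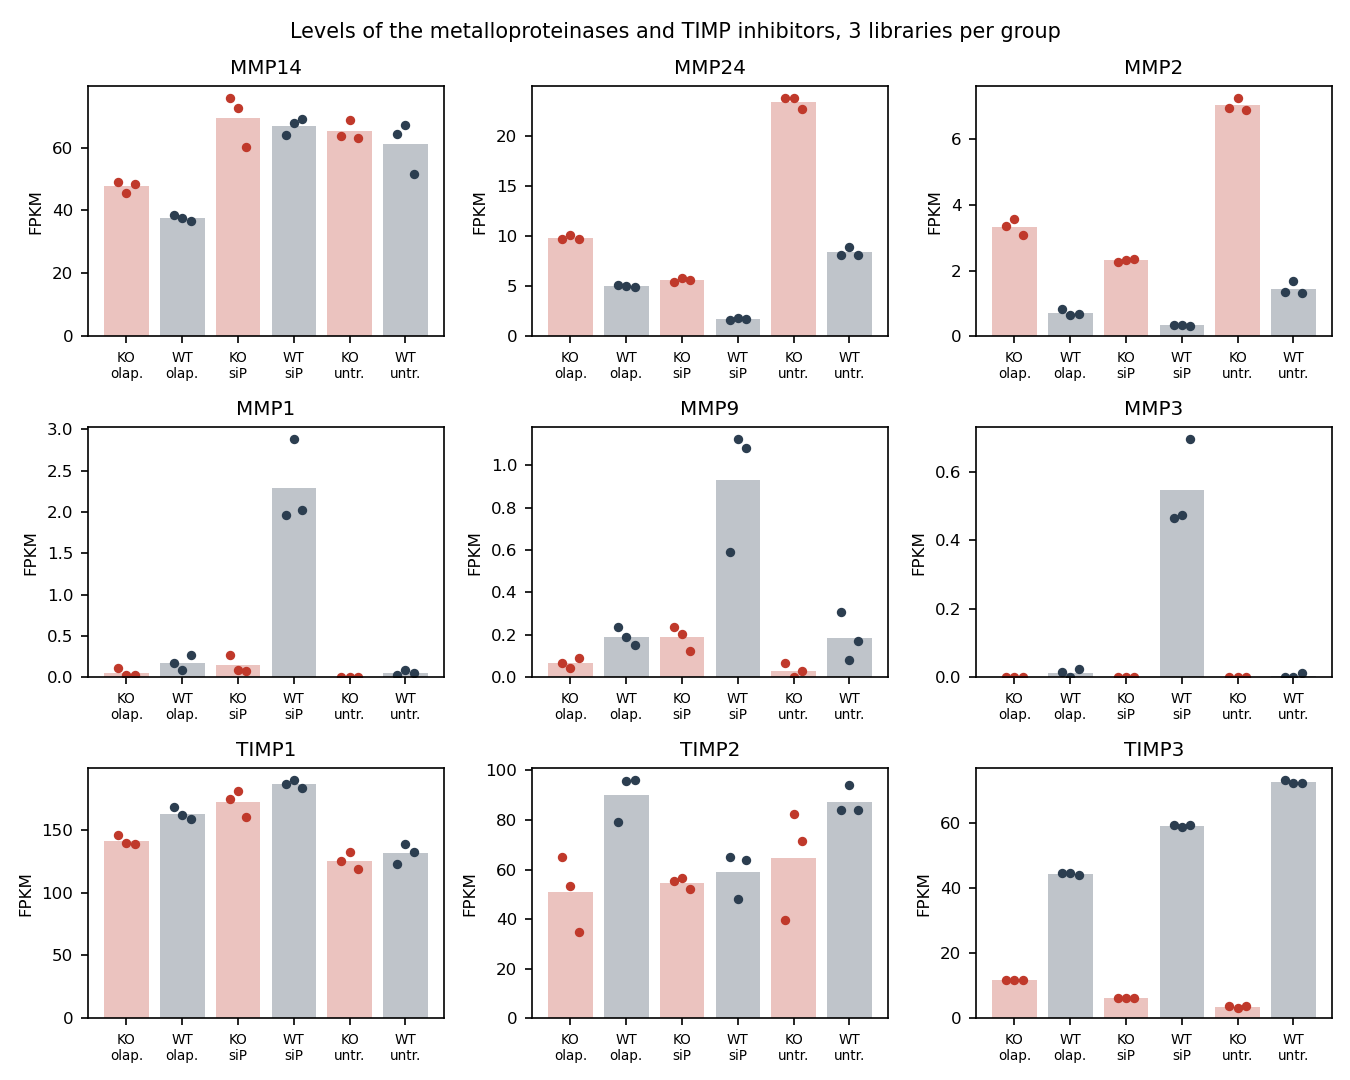
FPKM of 9 members in each library (points) with the group mean (bars), for KO (red) and WT (dark) cells under olaparib (olap.), under siPARP1 (siP) and without treatment (untr.). Each panel has its own linear axis from 0. TIMP3 was lower and MMP2 and MMP24 higher in KO cells in each pair, and MMP1, MMP9 and MMP3 stood out in WT cells under siPARP1.

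TIMP3 was lower in KO cells in each of the 3 conditions. It measured 3.64, 3.24 and 3.74 FPKM in the 3 untreated KO libraries, against 73.3, 72.3 and 72.3 FPKM in the WT libraries. The groups were far apart, each with little spread. TIMP3 was 20.5-fold lower in KO cells, a log2 difference of -4.02 (SE 0.040, limma adjusted p = 3.05e-17). RNA from a bulk culture does not show whether fewer cells carried the transcript or each cell held less of it, and these cannot be told apart for any member. Under olaparib TIMP3 measured 11.9, 11.8 and 11.7 FPKM in KO cells, against 44.6, 44.6 and 44.0 FPKM in WT cells. The gap was smaller there, 3.77-fold, at a log2 difference of -1.83 (SE 0.040, limma adjusted p = 6.31e-13). Under siPARP1 the values were 6.39, 6.33 and 6.17 FPKM in KO cells, against 59.4, 58.9 and 59.4 FPKM in WT cells. KO cells were again lower in all 3 libraries, by 9.41-fold (log2 -3.05, SE 0.040, limma adjusted p = 1.51e-15).

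Both treatments moved TIMP3 in opposite directions in the 2 genotypes. Olaparib raised it to 332.9% of the untreated mean in KO cells (log2 1.495, limma adjusted p = 1.06e-12) and lowered it to 61.1% in WT cells (log2 -0.70, limma adjusted p = 4.96e-09). The difference between the responses, KO minus WT, was 2.19 on the log2 scale (SE 0.057, limma adjusted p = 1.65e-11). siPARP1 raised TIMP3 to 178% in KO cells (log2 0.69, limma adjusted p = 3.14e-09) and lowered it to 81.6% in WT cells (log2 -0.29, limma adjusted p = 2.98e-05). Here the responses differed by 0.98 (SE 0.057, limma adjusted p = 1.63e-07). All 6 treated KO libraries lay above every untreated KO library, and all 6 treated WT libraries below every untreated WT library. Every TIMP3 call held under all alternatives run. The untreated libraries enter both treatment comparisons and the untreated genotype comparison, so these values are not independent of each other.

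TIMP3 lies on chromosome 22 of GRCh38, from 32801701 to 32863043, within the longer gene SYN3, which runs on the opposite strand. SYN3, a synapsin gene, was listed at no more than 0.0126 FPKM in any library. Only 1 TIMP3 transcript is listed, and its value equalled the gene value. The upstream sequence is printed because TIMP3 differed between KO and WT cells in all 3 conditions, and it shows how rich in CpG its start is. RefSeq's table for GRCh38.p14 holds promoters of 4 of the 10 members, and the 250 bases upstream of the TIMP3 start (chr22:32801455-32801704, plus strand) read as follows, 5′ to 3′, with each GC box (GGGCGG on either strand) in capitals.
TIMP3: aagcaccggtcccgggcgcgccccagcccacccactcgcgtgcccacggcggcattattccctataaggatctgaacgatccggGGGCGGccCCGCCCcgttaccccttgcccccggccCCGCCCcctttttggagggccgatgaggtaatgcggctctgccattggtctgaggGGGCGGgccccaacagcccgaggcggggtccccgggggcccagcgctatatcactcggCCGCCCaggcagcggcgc
The window holds 26 CpG pairs, against a median of 11 over all promoters of that length, and 80.4% of promoters hold fewer. The same window holds 25 in MMP24, 12 in TIMP1 and 7 in MMP14, so a high count is not particular to TIMP3. The TIMP3 window holds 5 GC boxes, a motif found at least once in 42.6% of 35116 promoters. The same window of MMP24 holds 3, that of TIMP1 2 and that of MMP14 1. None of these 4 windows holds TATAAA (in 10.7% of promoters) or the AP-1 letters TGANTCA (6.57%) on either strand. Such matches describe letters only, and no binding was measured.

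MMP2, gelatinase A, was higher in KO cells in each of the 3 conditions. It measured 6.95, 7.25 and 6.87 FPKM in untreated KO cells, against 1.36, 1.69 and 1.30 FPKM in WT cells. The lowest KO library stood well above the highest WT library, and the mean was 4.84-fold higher (log2 1.71, SE 0.066, limma adjusted p = 3.99e-10). Under olaparib the means were 3.34 ± 0.241 FPKM in KO and 0.722 ± 0.091 FPKM in WT cells (SD, n = 3 each), a 4.62-fold difference (log2 1.33, limma adjusted p = 8.44e-09). Under siPARP1 they were 2.31 ± 0.057 FPKM in KO and 0.335 ± 0.030 FPKM in WT cells, a 6.90-fold difference (log2 1.31, limma adjusted p = 4.39e-09). Both treatments lowered MMP2 in both genotypes. Olaparib left 47.5% of the untreated mean in KO cells (log2 -0.89, limma adjusted p = 6.84e-08) and 49.8% in WT cells (log2 -0.51, limma adjusted p = 2.15e-05). siPARP1 left 32.9% in KO cells (log2 -1.28, limma adjusted p = 8.87e-10) and 23.1% in WT cells (log2 -0.87, limma adjusted p = 6.26e-08). The lowest group, WT under siPARP1, held less than every other library, and the highest, untreated KO, more.

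Whether MMP2 responded differently in the 2 genotypes depended on several settings. On log2(FPKM + 1) the KO response was more negative, by -0.38 for olaparib (limma adjusted p = 0.0419) and by -0.40 for siPARP1 (limma adjusted p = 0.0227). As a share of the untreated mean, siPARP1 left more in KO cells, 32.9% against 23.1% in WT cells. Olaparib left 47.5% in KO and 49.8% in WT cells. With a pseudocount of 0.1 the differences were -0.14 (limma adjusted p = 0.728) and 0.26 (limma adjusted p = 0.389), so neither was called and the siPARP1 value changed sign. The olaparib call also ended after rescaling over annotated genes (-0.32, adjusted p = 0.186), without the filter (adjusted p = 0.09), with the filter at 5 FPKM (adjusted p = 0.0677) and with only the groups compared (adjusted p = 0.0995), all by limma. The siPARP1 call ended after rescaling (-0.23, adjusted p = 0.322), without the filter (adjusted p = 0.0518) and with only the groups compared (adjusted p = 0.0526), all by limma. The olaparib call ended too on leaving out untreated KO library 1, 2 or 3, untreated WT library 1 or 3, KO olaparib library 1 or 3, or any WT olaparib library (limma adjusted p = 0.0581 to 0.102). The siPARP1 call was lost without untreated KO library 2, untreated WT library 1 or 3, or KO siPARP1 library 1 (limma adjusted p = 0.0523 to 0.0586). The gene lies on chromosome 16, from 55389700 to 55506691. Its main coding transcript held 76.8 to 99.9% of the listed transcripts' sum in the 6 groups.

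MMP24, a membrane-type metalloproteinase first known from the nervous system, was also higher in KO cells in each condition. It measured 23.8, 23.8 and 22.7 FPKM in untreated KO cells, against 8.12, 8.91 and 8.10 FPKM in WT cells. All KO libraries lay above all WT libraries, and the mean was 2.79-fold higher (95% interval of the log2 difference 1.28 to 1.48, limma adjusted p = 1.43e-10). Under olaparib MMP24 averaged 9.84 ± 0.233 FPKM in KO and 5.01 ± 0.074 FPKM in WT cells (log2 0.85, limma adjusted p = 3.69e-08). Under siPARP1 it averaged 5.59 ± 0.210 FPKM in KO and 1.75 ± 0.122 FPKM in WT cells (SD, n = 3 each; log2 1.26, limma adjusted p = 2.89e-10). Olaparib left 42.1% of the untreated mean in KO cells (log2 -1.17, limma adjusted p = 1.26e-10) and 59.8% in WT cells (log2 -0.64, limma adjusted p = 8.66e-08). That response was more negative in KO cells by -0.53 (SE 0.069, limma adjusted p = 0.000738). siPARP1 left 23.9% in KO cells (log2 -1.89, limma adjusted p = 6.36e-13) and 20.8% in WT cells (log2 -1.77, limma adjusted p = 1.99e-12), and the responses were not called different (-0.12, 95% interval -0.26 to 0.03, limma adjusted p = 0.393).

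MMP24 lies on chromosome 20, from 35226654 to 35277000, and overlaps MMP24OS on the opposite strand. MMP24OS averaged 24.0 FPKM in KO and 21.6 FPKM in WT cells without treatment, a difference that was not called (log2 0.15, adjusted p = 0.167 by limma). It was lower under olaparib, at 15.3 FPKM in KO and 13.6 FPKM in WT cells, and under siPARP1, at 17.5 FPKM in KO and 15.5 FPKM in WT cells, and its part in the MMP24 values was not tested. AL121753.2, which also overlaps MMP24 on that strand, averaged 1.45 FPKM in KO and 1.12 FPKM in WT cells without treatment. Under olaparib it was higher, at 4.06 FPKM in KO and 4.01 FPKM in WT cells. Under siPARP1 it averaged 0.854 FPKM in KO and 0.4625 FPKM in WT cells. The part of AL121753.2 was not tested either.

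MMP14, the membrane-type enzyme that activates MMP2, was the most abundant of the 7 metalloproteinases in every group, and lies on chromosome 14 from 22836557 to 22849027. It measured 63.7, 68.7 and 63.1 FPKM in untreated KO cells, against 64.4, 67.0 and 51.5 FPKM in WT cells. These groups overlapped and the difference was not called (log2 0.10, 95% interval -0.10 to 0.30, limma adjusted p = 0.5). Olaparib lowered MMP14 in both genotypes, to 47.7 ± 1.76 FPKM in KO cells (log2 -0.44, limma adjusted p = 0.00124) and to 37.7 ± 0.816 FPKM in WT cells (log2 -0.67, limma adjusted p = 3.62e-05; SD, n = 3 each). Under olaparib KO cells were higher (log2 0.33, SE 0.093, limma adjusted p = 0.0294), with no overlap between libraries. This call ended without the filter (adjusted p = 0.0618) and on leaving out KO olaparib library 1 or 3 (adjusted p = 0.0921 and 0.0814) or WT olaparib library 1, 2 or 3 (adjusted p = 0.0616, 0.0725 and 0.0878), all by limma. Under siPARP1 MMP14 averaged 69.5 ± 8.33 FPKM in KO and 66.9 ± 2.67 FPKM in WT cells, with neither group called different from untreated cells (limma adjusted p = 0.466 and 0.223).

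The isoform values of MMP14 were uneven. The full-length coding transcript of 3732 bases averaged 60.6 ± 1.29 FPKM in untreated KO cells and 36.6 ± 10.6 FPKM in untreated WT cells (SD, n = 3 each). An annotated retained intron of 560 bases averaged 2.51 FPKM in KO and 15.3 FPKM in WT cells, with WT libraries between 0.769 and 22.7 FPKM. In KO cells under siPARP1 the full-length transcript ran from 17.35 to 70.49 FPKM, while the gene values ran from 60.04 to 75.76 FPKM. The listed transcripts summed to between 0.351 and 1.00 times the gene value, depending on the library. With these sums in place of the gene values, no MMP14 difference was called under olaparib (limma adjusted p = 0.535 for KO against WT, 0.228 for olaparib in KO and 0.154 in WT cells).

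The collagenase MMP1, on chromosome 11 from 102789920 to 102798160, was close to absent in 5 of the 6 groups. It measured 0.271, 0.0855 and 0.0785 FPKM in KO cells under siPARP1, against 1.96, 2.89 and 2.02 FPKM in WT cells. Every WT library stood above every KO library (log2 -1.52, SE 0.103, limma adjusted p = 1.24e-07). In untreated cells MMP1 was listed at 0 in all 3 KO libraries, against 0.0264, 0.0906 and 0.0545 FPKM in WT libraries. It was higher under siPARP1 in WT cells (log2 1.63, SE 0.103, limma adjusted p = 8.79e-09), while the change in KO cells was not called (log2 0.19, limma adjusted p = 0.132). The responses differed by -1.44 (SE 0.145, limma adjusted p = 3.61e-05). Because MMP1 passed the filter only through WT cells under siPARP1, it entered the test by being high there, and its calls that involve this group are descriptions. With values this low the fitted differences depend on the pseudocount. With 0.1 in place of 1 the rise in KO cells was called as well (log2 1.21, limma adjusted p = 0.0157), and the responses still differed. Both rest on gene values. In KO cells under siPARP1 the only listed MMP1 transcript was at most 0.104 FPKM, where the gene value reached 0.271 FPKM.

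MMP3 and MMP9 were highest in the same group as MMP1. MMP3, which lies 37.6 kb from MMP1 on chromosome 11, was listed at 0 in all 9 KO libraries. It measured 0.465, 0.475 and 0.695 FPKM in WT cells under siPARP1, against 0, 0 and 0.0119 FPKM in untreated WT cells. Without the filter MMP3 rose under siPARP1 in WT cells (log2 0.62, limma adjusted p = 3.01e-08), and the responses of KO and WT cells differed (-0.62, limma adjusted p = 2.78e-05). The model pools the spread of all groups, which for MMP3 came largely from libraries at or near 0. These MMP3 p-values therefore do not measure the spread within WT cells under siPARP1, and the calls are descriptions. MMP9, gelatinase B, on chromosome 20 from 46008908 to 46016561, measured 0.239, 0.203 and 0.122 FPKM in KO cells under siPARP1, against 0.589, 1.12 and 1.08 FPKM in WT cells. It was lower in KO cells there (log2 -0.69, SE 0.093, limma adjusted p = 0.000271) and rose under siPARP1 in WT cells (log2 0.69, limma adjusted p = 6.57e-05). The difference between the responses did not pass (-0.49, limma adjusted p = 0.0961). In untreated cells MMP9 measured 0.0681, 0 and 0.0275 FPKM in KO cells, against 0.306, 0.0826 and 0.173 FPKM in WT cells, a difference that was not called (limma adjusted p = 0.316). MMP13, the other collagenase, lies 144.8 kb from MMP1 and gave no value above 0.

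TIMP1, a secreted inhibitor, rose under both treatments. It measured 145.5, 139.0 and 138.8 FPKM in KO cells under olaparib, against 125.0, 132.3 and 118.8 FPKM in untreated KO cells. In WT cells the values were 168.2, 161.8 and 158.2 FPKM under olaparib, against 122.8, 138.5 and 132.1 FPKM without treatment. The groups did not overlap in either genotype (log2 0.17, limma adjusted p = 0.0225 in KO; log2 0.31, limma adjusted p = 0.000404 in WT). The rise in KO cells ended with values rescaled to a fixed sum over annotated genes (log2 0.09, limma adjusted p = 0.205), and without untreated KO library 1 or 3 or KO olaparib library 1 (adjusted p = 0.0528, 0.0993 and 0.0802). Under siPARP1 TIMP1 rose to 171.7 ± 10.6 FPKM in KO cells (log2 0.45, limma adjusted p = 9.01e-06) and to 186.4 ± 3.07 FPKM in WT cells (log2 0.51, limma adjusted p = 3.18e-06; SD, n = 3 each). KO cells were lower under olaparib (log2 -0.20, SE 0.056, limma adjusted p = 0.0267). That call ended without KO olaparib library 2 or 3 or WT olaparib library 1 or 2 (limma adjusted p = 0.0829, 0.0843, 0.1 and 0.0641). The genotypes were not called different without treatment (limma adjusted p = 0.485) or under siPARP1 (limma adjusted p = 0.148). The main TIMP1 coding transcript made up 72.0% of the listed transcripts' sum in KO and 69.3% in WT cells. TIMP1 lies on chromosome X, from 47582313 to 47586789, and the overlapping synapsin gene SYN1 was at most 0.399 FPKM.

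TIMP2, the inhibitor that also takes part in MMP2 activation, had the largest SE of the 7 tested members on the log2(FPKM + 1) scale. It measured 65.2, 53.2 and 35.0 FPKM in KO cells under olaparib, against 79.0, 95.6 and 96.2 FPKM in WT cells. KO cells were lower there with no overlap (log2 -0.85, SE 0.24, limma adjusted p = 0.0320), but the call ended without KO olaparib library 2 or 3 (adjusted p = 0.0607 and 0.137) or WT olaparib library 2 or 3 (adjusted p = 0.0947 and 0.0964), without the filter (adjusted p = 0.0728) and with only the 2 groups in the model (adjusted p = 0.0817), all by limma. In untreated cells TIMP2 measured 39.5, 82.3 and 71.7 FPKM in KO cells, against 83.9, 94.2 and 84.1 FPKM in WT cells. All KO libraries were lower, 1 of them by far, and the difference was not called (log2 -0.50, 95% interval -1.01 to 0.02, limma adjusted p = 0.173). Under siPARP1 TIMP2 averaged 54.6 ± 2.32 FPKM in KO and 58.9 ± 9.40 FPKM in WT cells (limma adjusted p = 0.823). The fall in WT cells, to 67.4% of the untreated mean, did not pass (log2 -0.57, limma adjusted p = 0.0602). It did with median-of-ratios scaling (-0.65, adjusted p = 0.0334), with values rescaled over annotated genes (-0.70, adjusted p = 0.0233) and with only the 2 groups in the model (adjusted p = 0.0123), all by limma. Olaparib in KO cells was called only without untreated KO library 1 (-0.62, limma adjusted p = 0.0229). The same transcript led in both genotypes, with 77.1% of the listed sum in KO and 78.7% in WT cells. TIMP2 lies on chromosome 17, from 78852977 to 78925387.

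Summed over genes, the inhibitors outweighed the enzymes in every library. In untreated cells the 3 TIMPs summed to 193.4 ± 24.9 FPKM in KO and 291.2 ± 12.8 FPKM in WT cells, and the 7 MMPs to 95.6 ± 3.64 FPKM in KO and 71.1 ± 8.78 FPKM in WT cells (SD, n = 3 each). The ratio of TIMP to MMP RNA averaged 2.02 ± 0.213 in KO and 4.14 ± 0.510 in WT cells without treatment. It averaged 3.34 ± 0.280 in KO and 6.80 ± 0.244 in WT cells under olaparib, and 3.00 ± 0.193 in KO and 4.19 ± 0.279 in WT cells under siPARP1. In each condition every KO library lay below every WT library. TIMP3 made up 1.86% of TIMP RNA in KO and 25.0% in WT cells without treatment, 5.80% in KO and 14.9% in WT cells under olaparib, and 2.71% in KO and 19.5% in WT cells under siPARP1. MMP14 made up 68.1% of MMP RNA in KO and 85.7% in WT cells without treatment, 78.2% in KO and 86.0% in WT cells under olaparib, and 89.3% in KO and 92.0% in WT cells under siPARP1. These sums describe RNA and say nothing of active enzyme, and no test was run on them. They use gene values, which for MMP14 and MMP1 differed from the transcript sums in some libraries.

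**Figure D2:**
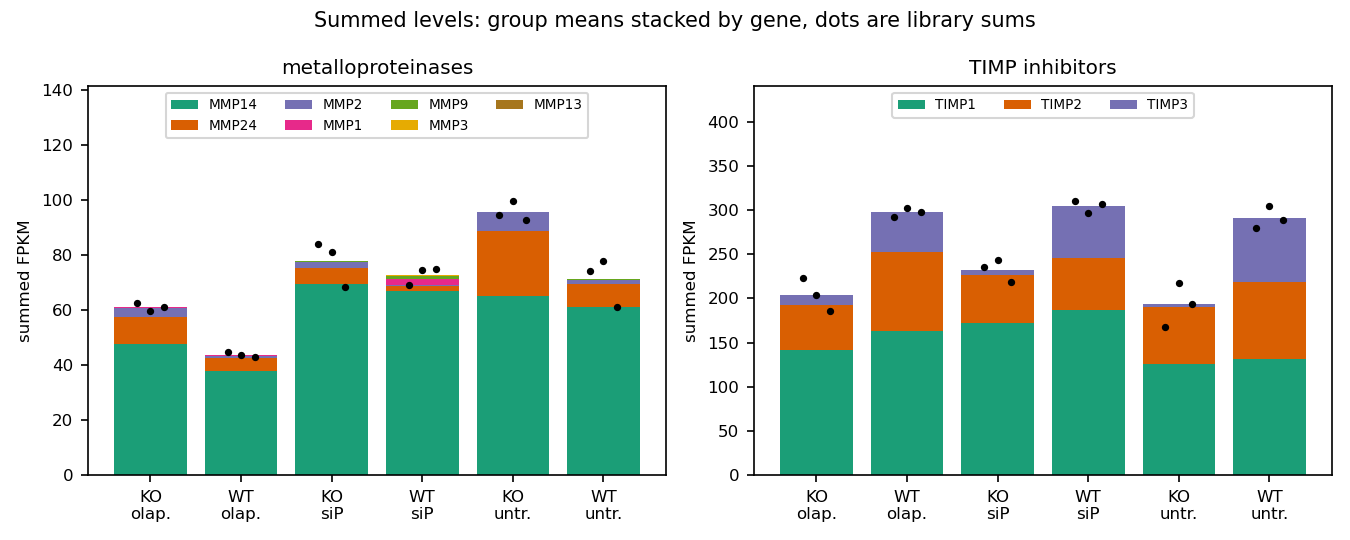
Summed FPKM of the 7 metalloproteinases (left) and the 3 TIMP inhibitors (right) in KO and WT cells under olaparib, under siPARP1 and without treatment. Stacked colours are group means of single genes and black dots are library sums. TIMP3 is a thin layer in KO bars, while MMP24 and MMP2 are thickest in untreated KO cells.

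Calls were then counted over the 7 tested members. Because the members were chosen with earlier results of these data known, the counts beside the shares of all genes are descriptions. Without treatment 2 were higher in KO cells (MMP2, MMP24) and 1 lower (TIMP3), where 9.58% of all tested genes were higher and 10.9% lower. Under olaparib 3 were higher (MMP2, MMP14, MMP24) and 3 lower (TIMP1, TIMP2, TIMP3), against 5.68% and 7.16% of all genes. The MMP14, TIMP1 and TIMP2 calls there ended on leaving out some of the single libraries. Under siPARP1, leaving out MMP1, 2 were higher (MMP2, MMP24) and 1 lower (TIMP3), against 11.8% and 11.2%. MMP1 was called lower there as well, but it passed the filter only through the WT libraries of that comparison and is not read against those shares. The median log2 difference of the 7 members, MMP1 included, was -0.06 without treatment and -0.15 under olaparib, beside -0.01 over all tested genes in both. The olaparib median was the value of MMP1 itself, at 0.058 FPKM in KO and 0.175 FPKM in WT cells. No shift of the members as a group is read from it.

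Treatments changed a large part of the transcriptome, and the members' counts stand beside high shares. With olaparib in KO cells 2 members were higher and 3 lower, where 25.2% of all tested genes were higher and 22.0% lower. In WT cells olaparib gave 1 higher and 4 lower member, against 24.9% and 20.4%. With siPARP1 in KO cells 2 were higher and 2 lower, against 31.9% and 22.8%, and in WT cells, leaving out MMP1, 1 was higher (TIMP1) and 3 lower, against 29.5% and 22.3%. Responses that differed between the genotypes were rarer. For olaparib 1 member had a higher response in KO cells (TIMP3) and 2 a lower one (MMP2, MMP24), against 1.40% and 1.66% of all genes. For siPARP1, leaving out MMP1, 1 was higher (TIMP3) and 1 lower (MMP2), against 2.74% and 2.52%. Of 20 alternatives the MMP2 calls held in 5 for olaparib and in 12 for siPARP1, and the siPARP1 value changed sign with a pseudocount of 0.1. MMP2, MMP24 and TIMP3 were called in all 7 direct comparisons.

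**Figure D3:**
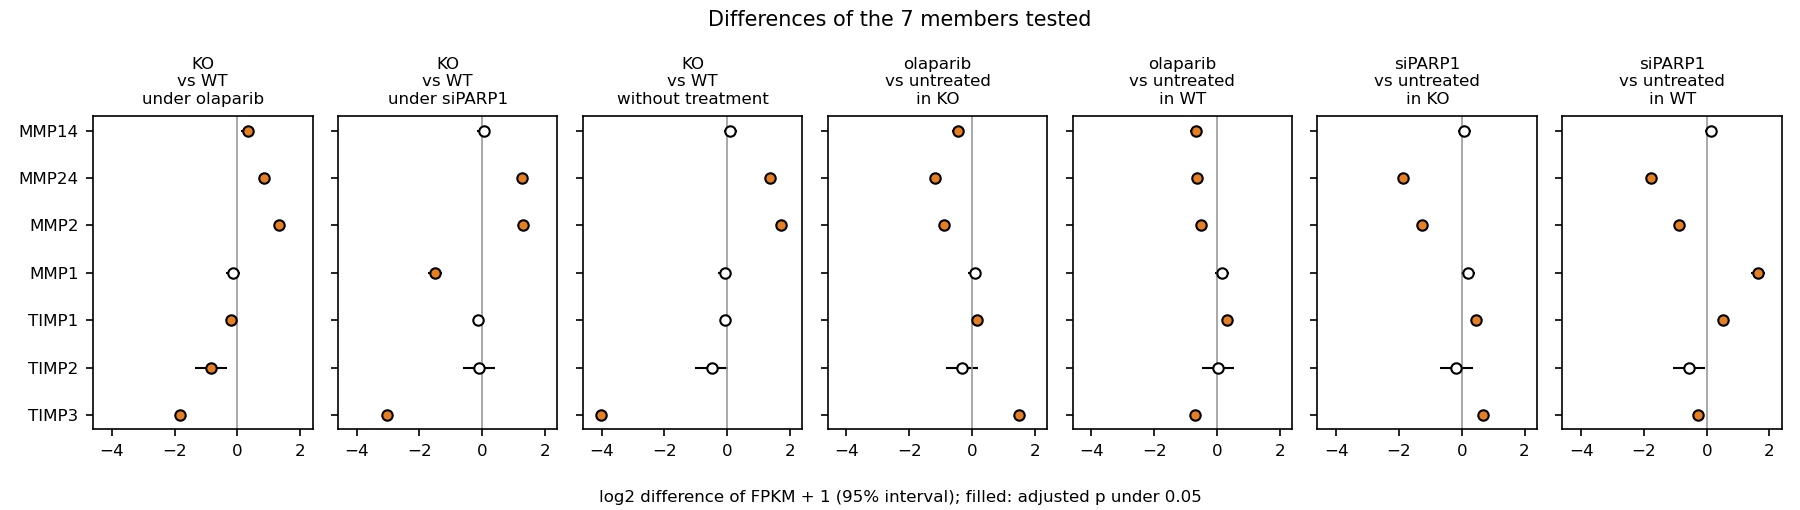
Log2 differences of FPKM + 1 with 95% intervals for the 7 tested members in the 7 direct comparisons, first-named group minus second, filled where the limma adjusted p was under 0.05. TIMP3 ranges from -4.02 for KO against WT without treatment to 1.495 for olaparib in KO cells, and TIMP2 has the widest intervals. MMP1 passed the filter only through WT cells under siPARP1, so its filled points are descriptions.

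**Figure D4:**
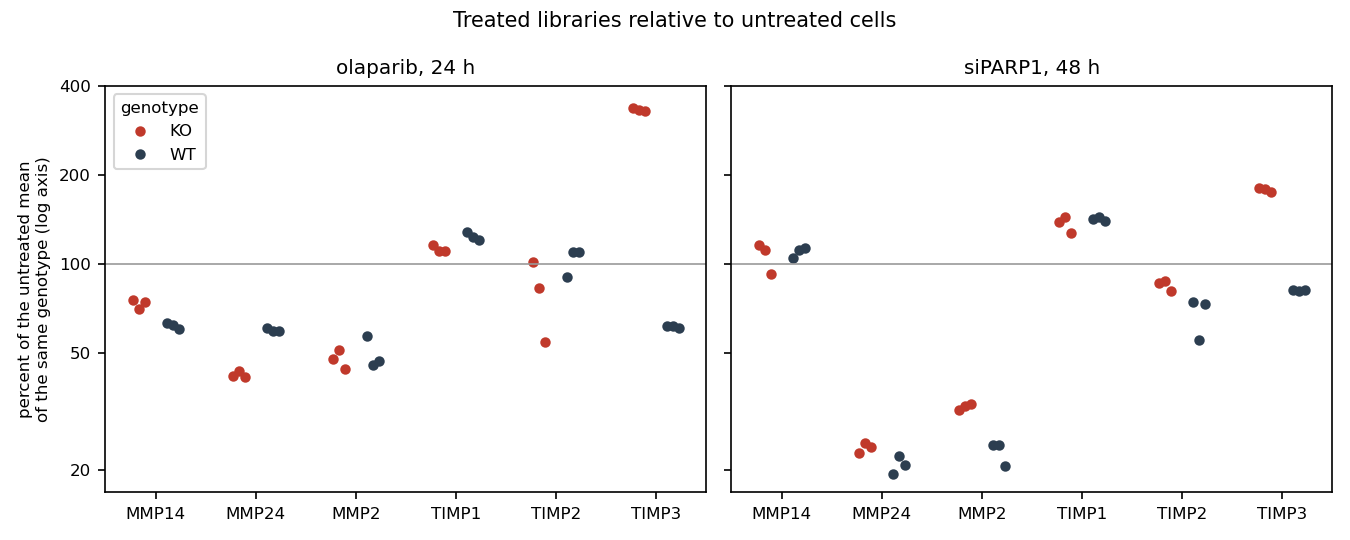
Level of 6 members in each treated library as a percentage of the untreated mean of the same genotype, on a log axis, after olaparib (left) and siPARP1 (right), for KO (red) and WT (dark) cells. TIMP3 lies above 100% in KO and below it in WT cells, while MMP24 and MMP2 lie below 100% in both.

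Genes near the members on their chromosomes were examined for whether a member moved alone. Over all tested genes 9.58% were higher and 10.9% lower in untreated KO cells, with a median log2 difference of -0.01. Of 95 tested genes within 5 Mb of TIMP3, 28 were higher in untreated KO cells and 1 was lower, with a median log2 difference of 0.17, opposite in sign to TIMP3. Around MMP24, 11 of 97 were higher and 9 lower, near the shares over all tested genes, with a median of 0.03. EDEM2, a gene of protein quality control 79.3 kb from MMP24, averaged 43.7 FPKM in KO and 27.7 FPKM in WT cells (log2 0.64, limma adjusted p = 7.39e-07). PROCR, the endothelial protein C receptor and another neighbour of MMP24, was also higher (log2 1.06, limma adjusted p = 5.81e-10), and it was picked after its value was seen. Around MMP2, 2 of 60 were higher and 5 lower (median -0.03), and around MMP14 7 of 90 were higher and 6 lower (median 0.02). BIRC3, an inhibitor of apoptosis 450.5 kb from MMP1, averaged 6.96 FPKM in KO and 16.5 FPKM in WT cells without treatment (log2 -1.14, limma adjusted p = 4.13e-07). In WT cells BIRC3 rose under siPARP1 to 24.3 FPKM (log2 0.53, limma adjusted p = 0.000135) and fell under olaparib to 7.87 FPKM (log2 -0.97, limma adjusted p = 5.26e-07). EDEM2, like MMP24, fell under siPARP1 in WT cells (log2 -0.67, limma adjusted p = 8.18e-08). MRPL52, a mitochondrial ribosome gene beside MMP14, was higher in untreated KO cells (log2 0.27, limma adjusted p = 0.00208) and rose in WT cells under olaparib (log2 0.32, limma adjusted p = 0.000188) and siPARP1 (log2 0.45, limma adjusted p = 5.81e-06). FBXO7, near TIMP3, fell under siPARP1 in WT cells (log2 -0.53, limma adjusted p = 0.00983).

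**Figure D5:**
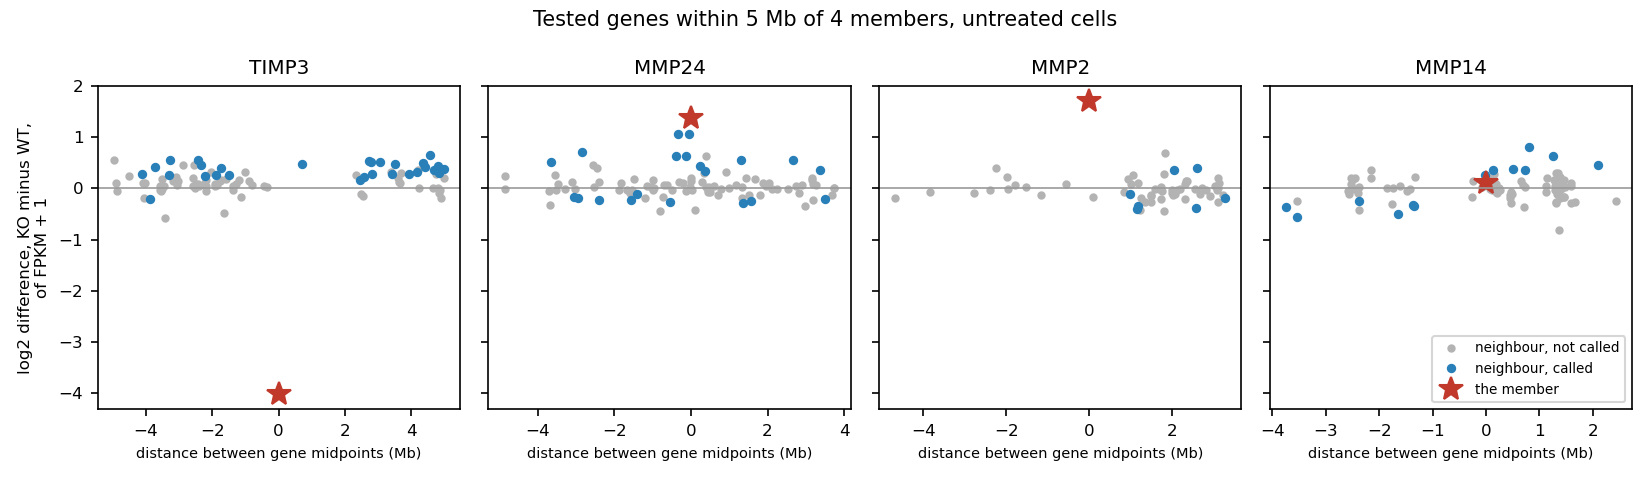
Log2 difference of FPKM + 1, KO minus WT without treatment, of tested genes within 5 Mb of 4 members (star at 0), against the distance between gene midpoints. Blue points passed a limma adjusted p of 0.05. TIMP3 at -4.02 stands apart from its neighbours, which lie mostly above 0, and MMP24 has called neighbours both above and below 0.

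Other genes of matrix turnover were counted in lists. In untreated cells these counts stand beside 9.58% of all tested genes higher and 10.9% lower in KO cells. The list of other MMP family members and TIMP4 held 17 genes, of which 4 were tested and 2 called, both named here after their values were seen. In untreated KO cells MMP15, a membrane-type enzyme, was higher (2.15 FPKM in KO and 1.40 FPKM in WT cells, log2 0.39, limma adjusted p = 0.00143) and MMP16, another, lower (1.96 FPKM in KO and 2.60 FPKM in WT cells, log2 -0.29, limma adjusted p = 0.0228). Of 12 tested ADAM and ADAMTS proteases, 4 were higher and 0 lower, among them ADAM19 (log2 0.38, limma adjusted p = 0.000456) and the shedding protease ADAM9 (log2 0.38, limma adjusted p = 8.08e-05). The TIMP3 target ADAM17 averaged 26.9 FPKM in KO and 26.0 FPKM in WT cells and was not called (limma adjusted p = 0.796). Of 20 genes of MMP activation and surface control, 5 were higher and 6 lower. FURIN, which activates membrane-type proenzymes, averaged 8.34 FPKM in KO and 5.78 FPKM in WT cells (log2 0.46, limma adjusted p = 5.02e-05), and SPOCK1, a testican, rose by as much (log2 0.46, limma adjusted p = 8.76e-06). The protease inhibitor SERPINE2 fell (log2 -0.69, limma adjusted p = 0.0151), as did CD63, a tetraspanin that binds TIMP1 (162.8 FPKM in KO and 225.7 FPKM in WT cells, log2 -0.47, limma adjusted p = 0.000635).

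Of 16 tested matrix substrates, 9 were higher and 2 lower in untreated KO cells, with a median log2 difference of 0.45, beside -0.01 over all tested genes. For this list and the next, 9.58% of all tested genes were higher and 10.9% lower. COL4A2, a chain of the type IV collagen that gelatinases cut, averaged 54.0 FPKM in KO and 29.2 FPKM in WT cells (log2 0.87, limma adjusted p = 2.07e-07), and HSPG2, perlecan, 27.1 FPKM in KO and 16.2 FPKM in WT cells (log2 0.71, limma adjusted p = 6.73e-07). COL3A1, a fibrillar collagen chain, fell (log2 -0.31, limma adjusted p = 0.00109). Of 26 tested transcription factors and cytokines known to act on MMP genes, 4 were higher and 8 lower. IL1A averaged 7.21 FPKM in KO and 31.9 FPKM in WT cells (log2 -2.001, limma adjusted p = 4.93e-12) and IL1B 2.54 FPKM in KO and 11.8 FPKM in WT cells (log2 -1.85, limma adjusted p = 6.37e-10). Both encode interleukin 1, a known inducer of MMP1 and MMP3 in fibroblasts. SNAI2 and JUN, an AP-1 subunit, rose (log2 0.72 and 0.60, limma adjusted p = 3.22e-06 and 5.85e-08).

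The same lists were counted in treated WT cells. There olaparib raised 24.9% and lowered 20.4% of all tested genes, and siPARP1 raised 29.5% and lowered 22.3%. Under olaparib 12 of the 26 regulators were higher and 8 lower, led by FOS, another AP-1 subunit, at 102 FPKM with olaparib and 3.93 FPKM without (log2 4.39, limma adjusted p = 4.94e-14), and EGR1 (log2 2.93, limma adjusted p = 1.65e-14). Of the 20 tested genes of the activation list 6 were higher and 4 lower, near the shares over all genes. PLAT, tissue plasminogen activator, was lower (log2 -1.75, limma adjusted p = 3.16e-06). PCSK7, a proprotein convertase, rose (log2 0.48, limma adjusted p = 0.00235) and SPOCK1 fell (log2 -0.54, limma adjusted p = 4.72e-07). JUND and ETV5 fell among the regulators (log2 -0.89 and -0.73, limma adjusted p = 0.00059 and 5.27e-06). COL5A1 and AGRN rose (log2 1.03 and 0.65, limma adjusted p = 1.65e-08 and 0.00224) and NID1 and COL6A2 fell (log2 -0.67 and -0.54, limma adjusted p = 6.15e-09 and 1.4e-05) among substrates, 7 of which were higher and 4 lower. ADAMTS1 rose (log2 0.17, limma adjusted p = 0.00481), while ADAM19 and ADAM17 fell (log2 -0.59 and -0.39, limma adjusted p = 2.18e-06 and 0.0028). Under siPARP1 7 of the 20 tested genes of the activation list were higher and 4 lower, near the shares over all genes. PLAUR, the urokinase receptor, rose to 42.6 FPKM, against 26.3 FPKM without treatment (log2 0.68, limma adjusted p = 2.14e-06), and CAV1, the caveolin of membrane pits, fell to 182.2 FPKM, against 505.4 FPKM (log2 -1.47, limma adjusted p = 6.45e-11). Among the regulators FOS and JUNB rose (log2 0.89 and 0.86, limma adjusted p = 5.65e-07 and 4.35e-07) and SMAD3 and ETS2 fell (log2 -0.60 and -0.59, limma adjusted p = 6.76e-07 and 3.18e-07). FURIN rose (log2 0.65, limma adjusted p = 3.37e-07) and PLAT fell (log2 -1.17, limma adjusted p = 0.000114). LAMB3, a laminin chain, rose (log2 1.15, limma adjusted p = 3.99e-10), while NID1 and COL5A1 fell (log2 -0.99 and -0.87, limma adjusted p = 9.38e-11 and 6.69e-08). ADAM19 rose (log2 1.17, limma adjusted p = 1.2e-09) and ADAM9 fell (log2 -0.64, limma adjusted p = 7.83e-08), as did ADAMTS1 (log2 -0.31, limma adjusted p = 3.15e-05), among the 3 higher and 4 lower ADAM and ADAMTS genes. The shares of all genes given above for each comparison apply to these counts too.

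The genes whose log2 values ran most alike to each member over the 18 libraries were taken from the 8824 genes averaging 5 FPKM or more. MMP24 was most like EDEM2 (Pearson r = 0.987), CDC42EP3 (0.986) and EGLN1 (0.974), and MMP2 was most like CRIM1 (0.963), EFEMP1 (0.962) and ETHE1 (0.957). TIMP3 was most like LNCAROD (0.943), UCHL1 (0.940) and UPP1 (0.937). The values for the other members were 0.964 for TIMP1 with BRI3, 0.944 for MMP14 with HMGXB4, 0.925 for MMP1 with SERPINB7 and 0.844 for TIMP2 with EIF2AK1. The 18 libraries fall into 6 groups, so libraries of a group are not independent points, and the correlations are given as a description. MMP1 was under 1 FPKM in 15 of these libraries.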

How the data were processed

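The 18 libraries were made, per the labels' protocols, from mRNA captured with oligo(dT) beads. The deposited tables hold FPKM values made by the authors, 1 per gene and 1 per transcript. Builds and tools in the submitters' processing notes are GRCh38, DESeq2 1.38.3, StringTie 2.2.1, featureCounts 2.0.3, HISAT2 2.2.1 and fastp 0.23.2, with no role for each. Counts were not analysed here, so the absolute depth is unknown. Unnamed loci held 43.4 to 49.8% of the summed FPKM. The share was 47.8 to 49.8% in untreated and 43.4 to 47.3% in treated libraries, so it differed with treatment. Its part in the treatment differences was not tested, beyond an alternative with values rescaled over annotated genes.

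A single limma 3.58.1 model (R 4.3.3) of 6 group means was fitted to log2(FPKM + 1) over the 15764 genes reaching 1 FPKM in 3 or more libraries, with a variance trend (12 residual and 2.06 prior degrees of freedom). Adjustment was by Benjamini-Hochberg over all tested genes in each of 9 comparisons, and a gene was called at an adjusted p under 0.05. A pseudocount of 1 understates changes of low genes. The model was tested on simulated data. No label says that libraries of a group are separate cultures. The p-values therefore measure sample-to-sample spread alone, and this may be technical. FPKM are relative, so a change in abundant transcripts shifts the others.

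Alternatives were a pseudocount of 0.1, no filter or one at 5 FPKM, median-of-ratios scaling, rescaling to a fixed sum over annotated genes, transcript sums, only the groups compared, the replicate number as a block, and each library left out. Members and gene lists were chosen with earlier results of these data known. All 10 members are named. From each list, up to 2 called genes with the strongest rise and up to 2 with the strongest fall are named for KO against WT without treatment and for each treatment in WT cells, if libraries did not overlap and the higher group averaged 5 FPKM. Some genes that meet this rule are not reported here. Positions and transcripts are from GENCODE 29 on GRCh38, promoters from RefSeq.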

Additional observations from a re-analysis of the deposited data

Results flagged for a closer look

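Responses to a treatment that differed between KO and WT cells by the interaction test in limma were noted for 5 members. TIMP3 differed by 2.19 on the log2(FPKM + 1) scale for olaparib and by 0.98 for siPARP1, KO minus WT, and it moved in opposite directions in the 2 genotypes both times. MMP24 differed by -0.53 for olaparib. MMP1 differed by -1.44 for siPARP1, but it passed the filter only through WT cells under siPARP1, so this value is a description. MMP2 differed by -0.38 for olaparib and by -0.40 for siPARP1, but not with a pseudocount of 0.1. MMP3 differed by -0.62 for siPARP1 in the model without a filter, but it was listed at 0 in all 9 KO libraries, so this value is a description too.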

How the results depend on the processing

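Of 565 repeats of member calls made at an adjusted p under 0.05, 519 kept direction and call, 45 lost the call and 1 reversed. The reversal was MMP2 in the siPARP1 response, KO minus WT, at 0.26 with a pseudocount of 0.1 (limma adjusted p = 0.389). MMP2 in the olaparib response kept its call in 5 of 20 alternatives and in the siPARP1 response in 12 of 20, with single libraries ending it in both. All calls of TIMP3 and MMP24 held in every alternative run.

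Counts of members, MMP1 included, moved as follows. Lower in KO under siPARP1, and higher under siPARP1 in WT cells, there were 4 without the filter and 1 at 5 FPKM. Higher under olaparib in KO cells, there was 1 after rescaling over annotated genes, and 1 to 2 with single libraries left out. Members with a lower olaparib response in KO numbered 1 with a pseudocount of 0.1, without the filter, at 5 FPKM, after rescaling and with only the groups compared, and 1 to 2 with single libraries left out. Those with a lower siPARP1 response numbered 1 in the same alternatives except without the filter, and 1 to 2 with single libraries left out. Lower in KO under olaparib, there were 1 to 3 with single libraries left out, and 2 without the filter or with only the groups compared. Higher in KO under olaparib, there were 2 without the filter and with transcript sums, and 2 to 3 with single libraries left out.

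Replicate numbers did not pair the samples: deviations of same-numbered libraries correlated at -0.071 to 0.087, with 0 of 45 pairs over 0.1. The replicate block changed no call (TIMP3, KO against WT without treatment: -4.02, limma adjusted p = 1.34e-14). Depth limits MMP1, MMP3, MMP9 and MMP13, where values lie near 0. Without counts, no detection limit can be given for them. The causes of the changes above were not tested. The stricter filter left out MMP1, and without a filter MMP3 and MMP9 entered the counts. Values are RNA levels of 1 cell line, in 3 libraries a group, with no vehicle or control siRNA library.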
